A study of Mus musculus with 150 samples.

Results

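Lungs of air-breathing transgenic and wild-type mice were compared after 52 weeks, from 10 of the 150 arrays of a study of inhaled styrene. The members were chosen by their labels, which give air without styrene, 52 weeks and the line. They were 5 transgenic mice (TG), which lack the mouse Cyp2f2 gene and carry a transgene labelled 2F1,SA13,2B6, and 5 wild-type mice (WT). Another group of 5 mice (KO), which lack Cyp2f2 and carry no transgene, breathed air for the same 52 weeks and is set beside them. All 15 were adult male C57Bl/6 mice from Taconic, and RNA of each whole lung was measured on its own Affymetrix HT MG-430 PM array. TG mice differ from WT mice by at least the deletion and the transgene. A TG minus WT difference alone cannot say which of them, if either, it goes with. The KO mice share the deletion and not the transgene. Other genetic differences between the lines were not tested. The sources used here do not name the promoter of the transgene, the transcripts of the transgene were not analysed here, and they do not say whether mice of a line shared litters. The labels describe exposure chambers on 5 days a week for 6 hours, and their treatment text names shorter exposures than the 52 weeks in each sample's own label, which is used here.

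Cyp2f2 is a cytochrome P450 of club cells, the secretory cells of the airways, which oxidises small lipophilic chemicals such as styrene and naphthalene. The human enzymes CYP2F1 and CYP2B6 belong to the same wider family and also oxidise inhaled and other foreign compounds. Airway epithelium holds further enzymes for such compounds, among them carboxylesterases, glutathione transferases, aldehyde oxidase and carbonyl reductases, some of which are targets of the oxidant-sensing transcription factor Nrf2.

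Values are log2 intensities as deposited, called levels below, and differences are TG minus WT on the log2 scale. The medians of the 10 arrays lay between 4.11 and 4.17, and the number of arrays limits the precision. The WT arrays held neighbouring wells in 1 row of the first array plate and the TG arrays neighbouring wells in the next row, and each line carries a code of its own in the sample descriptions, so well position, code and line cannot be told apart. TG replicate 5 lay farthest from its group, with an SD of its deviations from the group mean over genes of 0.307, against 0.191 to 0.204 in the other 4 TG arrays and 0.154 to 0.237 in the 5 WT arrays. The defining markers of lung cells were present in both groups. Sftpc of alveolar type 2 cells was at 13.76 ± 0.05 in TG and 13.81 ± 0.02 in WT lungs, and Ager of type 1 cells at 13.59 ± 0.06 in TG and 13.56 ± 0.07 in WT lungs (SD, n = 5 each). Scgb1a1 of club cells was at 13.83 ± 0.06 in TG and 13.94 ± 0.03 in WT lungs, and Foxj1 of ciliated cells at 7.65 ± 0.46 in TG and 8.01 ± 0.37 in WT lungs. In whole-lung RNA, fewer cells of a type and less RNA per cell cannot be told apart.

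Of 15695 genes tested, 45 differed between TG and WT lungs at an adjusted p under 0.05 (0.287%), 16 of them higher in TG (0.102%) and 29 lower (0.185%). At an unadjusted p under 0.05 there were 1316 genes, 672 higher and 644 lower, and the median difference of all genes was -0.01. Differences of the 45 called genes ran from 0.23 to 3.42 in size, and 11 genes were over 2-fold lower and 5 over 2-fold higher. In 42 of the 45 the values of the 5 TG and the 5 WT arrays did not overlap. Over all genes tested, 1.5% had all 5 TG arrays below all 5 WT arrays and 1.07% had them all above. With a stricter filter on dim genes 37 passed, 18 higher and 19 lower, so the excess of lower calls was not kept. With C57BL/6 arrays only, leaving out the CD-1 mice that the main fit includes, 104 passed, 40 higher and 64 lower. The count depended on single arrays, with 29 genes called without TG replicate 3 and 54 without TG replicate 2. A fit of these 10 arrays alone also called 45 genes, 26 of them among the 45 above. That fit, or the fit of the TG, KO and WT arrays of 52 weeks in air, ended the calls of Slc9a9, Cap1, Gclm, Gsta2, Osr1, Siglecf, Tceanc2, Ugt1a9, Cbr3, Hyi, Fkbp1b, Dusp7, Atf7, Tmsb10 and B630019K06Rik, genes named below.

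Cyp2f2, the deleted gene, was at 12.12, 12.30, 12.19, 12.03 and 11.80 in TG lungs, at 12.31, 12.38, 11.69, 11.88 and 12.14 in KO lungs, and at 13.53, 13.48, 13.52, 13.52 and 13.44 in WT lungs. All TG and KO arrays lay below all WT arrays, and the TG and KO values overlapped. The TG mean was 2.66-fold below the WT mean (difference -1.41 ± 0.11 SE, adjusted p = 3.61e-19), and TG minus KO was 0.01. The signal left in TG and KO lungs was far above the dim end of the arrays. Which exons the deletion removed and which the probe set reads is not known here, and a probe set outside them would check nothing. Mia, a small secreted protein gene that is also on chromosome 7 (RefSeq, GRCm38.p6), was at 5.92 ± 0.14 in TG, 5.93 ± 0.12 in KO and 6.69 ± 0.15 in WT lungs (SD, n = 5 each). It was called lower in TG (adjusted p = 0.0374), and was named after its values were seen. That call was lost without any 1 of 7 of the 10 arrays, with adjusted p values up to 0.123.

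The largest difference was in Ces1f, a carboxylesterase of a gene cluster on chromosome 8 whose enzymes hydrolyse ester bonds in drugs and lipids. Its level was 3.37, 3.59, 3.84, 3.62 and 3.58 in TG lungs, 4.02, 4.80, 3.34, 3.79 and 4.49 in KO lungs, and 6.93, 7.17, 7.05, 6.70 and 7.26 in WT lungs. TG lungs were 10.7-fold lower than WT lungs (adjusted p = 8.16e-15), with no overlap, and the TG values lay close to the level of 3.04 to 3.10 used as a filter on dim genes, where background signal compresses differences. Ces1g, a paralogue, was at 4.93, 4.05, 4.28, 4.16 and 3.79 in TG lungs, 4.82, 5.14, 3.59, 3.89 and 3.80 in KO lungs, and 6.05, 6.24, 6.02, 4.98 and 6.02 in WT lungs. Its TG and WT values did not overlap although WT replicate 4, at 4.98, lay near the highest TG value, and TG was 3.08-fold lower (adjusted p = 0.000102). Ces1e, which with Ces1f and Ces1g forms an unbroken run of tested genes on chromosome 8, was 1.97-fold lower in TG (adjusted p = 0.0374), a call that leaving out any 1 of 9 of the 10 arrays ended, with adjusted p values from 0.0528 to 0.194. Of 11 carboxylesterase genes tested these 3 fell and none rose, and the list's median difference was -0.14, against -0.01 over all genes. Probe sets of such close paralogues can pick up each other's transcripts, and whether these do was not tested.

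Upstream sequences are shown for the 2 called carboxylesterase neighbours that the RefSeq promoter table (GRCm38.p6) holds, since they were lower together. Each line gives the 250 bases before the annotated start, read 5′ to 3′ on the gene's own strand, with the D-box TTATGTAA, a site of the PAR bZIP and C/EBP families, in capitals. Ces1g lies on the minus strand at chr8:93337210-93337459 and Ces1e on the minus strand at chr8:93229620-93229869.
Ces1g: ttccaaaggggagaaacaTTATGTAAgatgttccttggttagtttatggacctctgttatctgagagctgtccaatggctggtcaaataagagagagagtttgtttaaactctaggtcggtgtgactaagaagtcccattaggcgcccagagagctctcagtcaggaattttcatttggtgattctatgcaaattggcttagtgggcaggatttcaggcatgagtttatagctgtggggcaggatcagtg
Ces1e: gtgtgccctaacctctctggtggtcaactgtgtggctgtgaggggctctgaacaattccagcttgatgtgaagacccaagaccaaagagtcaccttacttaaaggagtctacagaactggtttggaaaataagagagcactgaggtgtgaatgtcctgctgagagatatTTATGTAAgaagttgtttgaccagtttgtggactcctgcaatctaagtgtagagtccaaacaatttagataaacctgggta
The motif begins 232 bases before the start of Ces1g and 81 bases before that of Ces1e. Searched on both strands, it occurs in 0.819% of all 32851 promoter windows of this length, and among 35 called genes with a window only these 2 hold it (5.71%). The first share counts windows and the second counts genes, so they are not alike. The motif was chosen after the sequences had been read, the 2 genes are paralogues, and a match of letters is no evidence of binding.

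Among other metabolic genes, Acsm1, a mitochondrial medium-chain acyl-CoA synthetase, was at 4.31, 5.01, 4.70, 4.17 and 4.40 in TG lungs, against 6.15, 6.29, 6.38, 6.11 and 5.74 in WT lungs. All TG values lay below all WT values, and TG was 3.07-fold lower (adjusted p = 2.21e-05), with a KO mean of 4.83 ± 0.56 (SD, n = 5). Aox1, an aldehyde oxidase, was at 7.78, 8.32, 8.01, 8.10 and 7.86 in TG lungs, against 8.83, 8.95, 9.33, 9.12 and 8.97 in WT lungs, a 2.03-fold difference without overlap (adjusted p = 6.46e-05). Its KO mean was 8.12 ± 0.14. Cyp4f15, a P450 that hydroxylates fatty acid derivatives, was 1.95-fold lower in TG (5.26 ± 0.27 against 6.22 ± 0.21 in WT, adjusted p = 0.00868), and without TG replicate 5 its adjusted p was 0.0681. Ugt1a9, named after its values were seen, was 1.39-fold lower in TG (9.27 ± 0.19 against 9.74 ± 0.14 in WT, adjusted p = 0.0112). The Ugt1a genes, which encode glucuronosyltransferases, share their last exons, so this probe set may not stand for Ugt1a9 alone, and 4 of the 10 fits without 1 array lost the call. Of 18 P450 and epoxide genes tested, 2 fell, Cyp2f2 and Cyp4f15, and none rose, with a median of -0.16. Cyp2a5, another airway P450, had a difference of -1.43 that did not pass the test (adjusted p = 0.25), although all 5 TG values, 7.87 to 9.34, lay below the 5 WT values, 9.57 to 10.59.

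**Figure D1:**
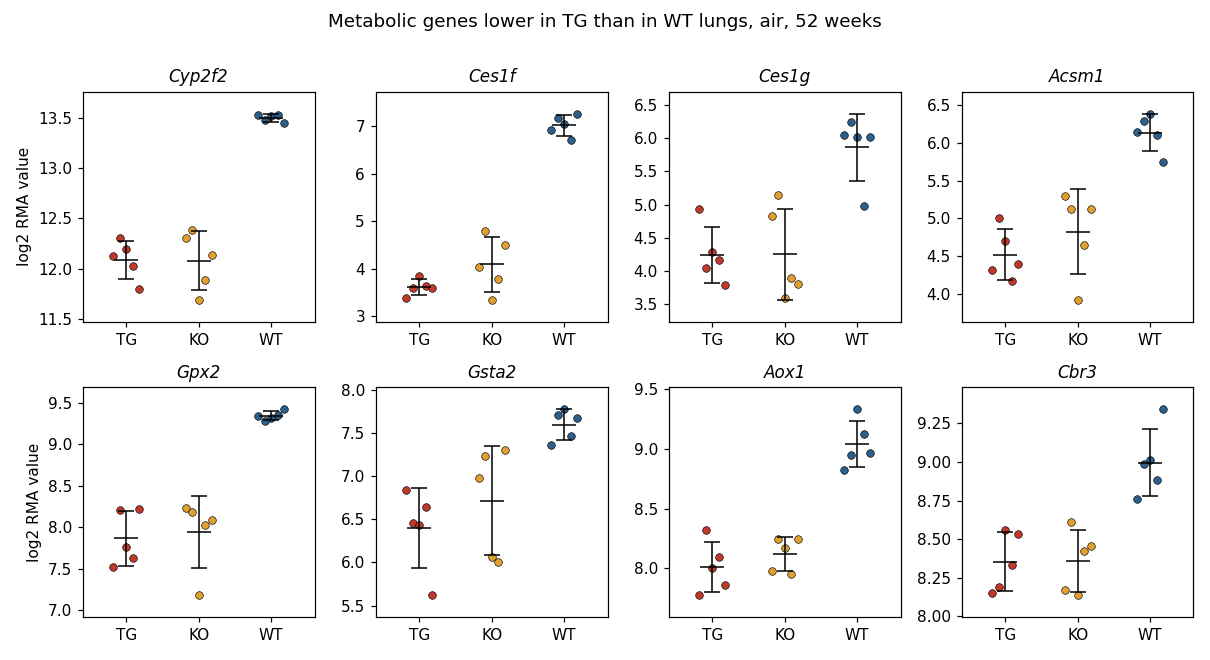
Levels (log2 RMA value) of 8 metabolic genes in each TG, KO and WT lung after 52 weeks of air, with points for single arrays and bars for the mean ± SD (n = 5 each). All 5 TG points lie below all 5 WT points in each panel, and all 5 KO points lie below all 5 WT points in every panel except that of Ces1g.

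Genes of glutathione and oxidant metabolism were lower in TG lungs in several cases. Gpx2, the epithelial glutathione peroxidase, was at 7.52, 8.20, 7.75, 7.62 and 8.22 in TG lungs, 8.23, 8.19, 7.18, 8.02 and 8.09 in KO lungs, and 9.35, 9.28, 9.33, 9.36 and 9.42 in WT lungs. The WT values lay close together and above every TG and KO value, and TG was 2.80-fold lower than WT (adjusted p = 6.94e-06). Gsta2, a glutathione transferase, was at 6.84, 6.46, 6.43, 6.64 and 5.62 in TG lungs, against 7.36, 7.71, 7.77, 7.47 and 7.67 in WT lungs. It was 2.29-fold lower in TG without overlap (adjusted p = 0.00318), TG replicate 5 was the lowest array, and without it the adjusted p was 0.0616. Its KO mean of 6.71 ± 0.63 stood between the other means, and KO minus WT did not pass the test (adjusted p = 0.173). Cbr3, a carbonyl reductase, was 1.56-fold lower (8.35 ± 0.19 in TG, 8.36 ± 0.20 in KO and 9.00 ± 0.22 in WT, adjusted p = 0.00637 for TG minus WT), and its call was lost without TG replicate 1 (adjusted p = 0.0514) or WT replicate 5 (0.0686). Gclm, the modifier subunit of the enzyme that starts glutathione synthesis, was 1.43-fold lower (7.94 ± 0.09 in TG, 8.30 ± 0.38 in KO and 8.45 ± 0.16 in WT, adjusted p = 0.0116), was named after its values were seen, and was no longer called without TG replicate 3 (0.077) or WT replicate 5 (0.0771). Of 20 Nrf2 target genes tested, 4 fell, namely Gpx2, Cbr3, Gclm and Aox1, none rose, and the median was -0.18. Of 17 glutathione transferase genes, Gsta2 fell, none rose, and the median was -0.19. In the other TG and WT mice described below, 8 of these Nrf2 targets and 6 of these glutathione transferases were called lower, none higher. Of all genes tested, 2.17% were called there in either direction.

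The antioxidant response element, the Nrf2 site, was searched as TGACNNNGC on both strands in the same 250-base windows. All 4 called Nrf2 targets have a window, and Gclm is the 1 that holds the motif, so its window is shown. It lies on the plus strand at chr3:122245307-122245556, with the motif, on the opposite strand, in capitals from 134 bases before the start.
Gclm: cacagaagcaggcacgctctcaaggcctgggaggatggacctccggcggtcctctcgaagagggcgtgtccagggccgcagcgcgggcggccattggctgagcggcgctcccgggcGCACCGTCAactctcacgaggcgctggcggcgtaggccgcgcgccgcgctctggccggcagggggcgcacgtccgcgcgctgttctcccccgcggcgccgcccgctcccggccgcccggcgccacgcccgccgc
The motif occurs in 10.2% of all promoter windows and in 3 of the 35 called genes with a window (8.57%), the others being Fkbp1b and Pdap1. The first share counts windows and the second counts genes, so they are not alike. Known elements of these genes may lie outside the window, and nothing is drawn about Nrf2 from a window without the letters.

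Most airway genes had a difference below 0, and few members passed the test. Of 15 airway metabolic genes tested, Acsm1 and Gpx2 fell and none rose, 14 had a difference below 0, and the median was -0.47. In 10 of these 15 genes all TG arrays lay below all WT arrays, against 1.5% of all genes tested. Pon1, a paraoxonase, averaged 9.70 in TG lungs and 10.72 in WT lungs (adjusted p = 0.058). Of 16 club cell markers tested, only Cyp2f2, the deleted gene, passed the test, while all 16 differences lay below 0, with a median of -0.27. In 6 of the 16, Cyp2f2 among them, all TG arrays lay below all WT arrays, against 1.5% of all genes tested. Without Cyp2f2, the log2 of the summed level of the other 15 markers was 15.49 to 15.78 over TG arrays and 15.74 to 15.98 over WT arrays, which overlap. Scgb1a1, the defining club cell marker, differed by -0.11 (adjusted p = 0.39). All 5 of its TG values, 13.77 to 13.89, lay below the 5 WT values, 13.92 to 13.98. These levels are close to 14.00, the highest value on any array, and whether differences are compressed there was not tested. All 16 ciliated cell markers had a difference below 0 (median -0.33), none passed, and their log2 summed level was 12.37 to 12.95 over TG and 12.58 to 12.93 over WT arrays. In the other TG and WT mice described below, whose average mixes air and styrene groups, these medians were nearer 0. They were -0.06 for airway metabolic genes, -0.007 for club cell markers and -0.07 for ciliated cell markers, and Pon1 differed by 0.16. The part of airway content in the differences of the metabolic genes was not tested.

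A few genes differed in TG lungs from KO lungs as well as from WT lungs in the fit of all arrays. TG minus KO called 5 genes of 15695 (0.0319%), 3 without KO replicate 5, and KO minus WT called 23 (0.147%), and these comparisons share the TG or the WT arrays with TG minus WT, so their values are only set side by side. All 5 TG minus KO calls, Cd59a, Tceanc2, Cap1, Wdfy1 and Sec14l4, were lost in a fit of the TG and KO arrays alone (adjusted p from 0.408 to 0.745), and only Wdfy1 passed with the 52-week air arrays alone (0.036). Cd59a, a membrane-anchored inhibitor of complement lysis, was at 6.41, 6.49, 6.30, 6.66 and 6.83 in TG lungs, 7.21, 6.53, 8.12, 7.62 and 8.12 in KO lungs, and 8.09, 8.05, 7.97, 7.99 and 8.09 in WT lungs. TG was 2.83-fold below WT without overlap (adjusted p = 1.96e-08) and lower than KO (-0.98, adjusted p = 0.00697), while the KO values spread from the TG to the WT range. Its other probe set gave a TG minus WT difference of -1.43. Tceanc2, a gene with domains of transcription elongation factor S-II, was at 2.96, 2.50, 4.56, 2.68 and 4.82 in TG lungs, 5.36, 5.37, 5.58, 5.41 and 5.46 in KO lungs, and 5.12, 5.44, 5.45, 5.04 and 5.51 in WT lungs. No TG value reached the lowest KO or WT value. In 3 TG arrays the value lay below the filter level of 3.04 to 3.10 and only 2 TG arrays measured it above that level, so the mean difference of -1.81 from WT (adjusted p = 4.85e-05) and of -1.93 from KO (adjusted p = 3.11e-05) may be compressed there and gives no exact fold. Tceanc2 did not pass in the fit of these 10 arrays alone (adjusted p = 0.106).

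Cap1, an actin-regulating adenylyl cyclase-associated protein, was at 10.40, 10.39, 9.76, 10.78 and 10.51 in TG lungs, 9.95, 9.63, 9.71, 9.81 and 9.49 in KO lungs, and 9.80, 9.82, 9.69, 9.66 and 9.90 in WT lungs. TG replicate 3 lay within the WT range and the other 4 TG arrays above it. Cap1 was 1.51-fold higher in TG than in WT (adjusted p = 0.00565) and higher than in KO (0.65, adjusted p = 0.00606), and its other probe set gave 0.62. Without TG replicate 4 the adjusted p was 0.0795, and in the fit of these 10 arrays alone it was 0.142. Hyi, a hydroxypyruvate isomerase, was 2.07-fold higher in TG (5.56 ± 0.41 in TG, 4.85 ± 0.22 in KO and 4.51 ± 0.31 in WT, adjusted p = 0.0038), without overlap, and without TG replicate 1 the adjusted p was 0.0642. Its TG minus KO difference of 0.71 did not pass the test (adjusted p = 0.977). Tceanc2, Cap1 and Hyi are on chromosome 4, which held 6 called genes, as did chromosome 7. That is 0.624% of the genes tested on chromosome 4 and 0.498% on chromosome 7, against 0.598% on chromosome X, 0.574% on chromosome 12 and 0.287% over all genes. Positions of the probe sets are not printed, since no source used here names the build of the array.

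**Figure D2:**
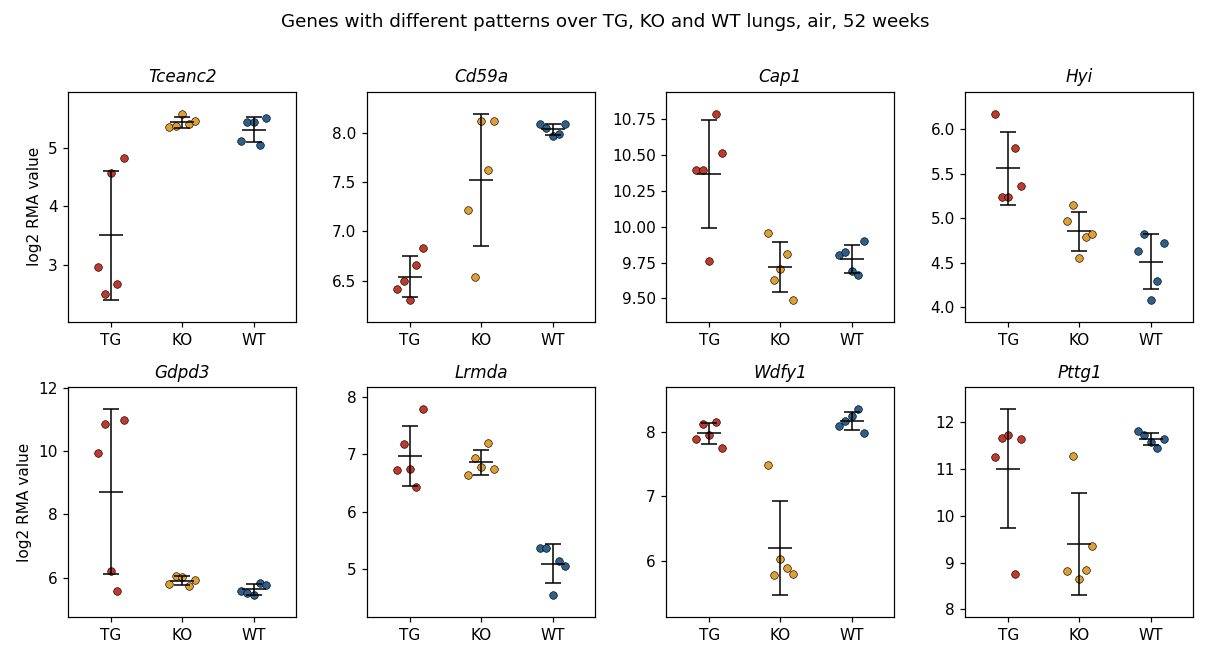
Levels (log2 RMA value) of 8 genes in each TG, KO and WT lung after 52 weeks of air, with points for single arrays and bars for the mean ± SD (n = 5 each). Tceanc2, Cd59a and Cap1 were called between TG and both other groups, Hyi between TG and WT and not between TG and KO, Gdpd3 is high in 3 TG lungs, Lrmda sets TG and KO apart from WT, and Wdfy1 and Pttg1 are low in most KO lungs and, for Pttg1, in TG replicate 4.

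Lrmda, a gene named for its link to melanocyte differentiation, was the called gene with the largest rise. It was at 6.73, 7.19, 6.74, 6.42 and 7.79 in TG lungs, 6.63, 6.94, 6.78, 7.20 and 6.75 in KO lungs, and 5.37, 5.36, 4.54, 5.14 and 5.04 in WT lungs. TG and KO values overlapped each other and lay above all WT values, and TG was 3.69-fold above WT (adjusted p = 1.23e-14). Its other probe sets gave 2.33 and 0.51. Slc9a9, an endosomal sodium-proton exchanger, was at 5.14 ± 0.08 in TG, 5.18 ± 0.21 in KO and 4.06 ± 0.71 in WT lungs (adjusted p = 0.0264 for TG minus WT). WT replicate 5, at 2.88, was the lowest array, and the call was lost in 6 of the 10 fits without 1 array, with adjusted p values from 0.0547 to 0.214, the last without that replicate. With the mean of probe sets the adjusted p was 0.118, and the gene's 3 other probe sets gave 0.14, 0.08 and -0.02. Camk2b, a subunit of a calcium-dependent protein kinase, was 2.04-fold lower in TG (3.30 ± 0.27 in TG, 3.46 ± 0.33 in KO and 4.32 ± 0.13 in WT, adjusted p = 7.74e-06), at low levels in all lungs.

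Gdpd3, a glycerophosphodiester phosphodiesterase, split the TG mice. It was at 9.94, 10.87, 6.20, 5.59 and 10.98 in TG lungs, 5.78, 6.04, 6.02, 5.74 and 5.92 in KO lungs, and 5.58, 5.50, 5.44, 5.84 and 5.75 in WT lungs. In TG replicates 1, 2 and 5 it lay far above every KO and WT value, and in replicates 3 and 4 it lay near them, so the mean difference of 3.09 did not pass the test (adjusted p = 0.15). Over all 38 TG mice of the series, 20 had a level of 9.29 or more and 18 a level of 6.20 or less, with none between, while 39 KO mice reached at most 6.04 and 31 WT mice at most 6.05. At 52 weeks Gdpd3 had the largest SD among TG arrays of all genes tested, 2.62, against 0.17 among WT arrays.

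In other genes most TG lungs lay near the WT level while most KO lungs were low. Wdfy1, a FYVE-domain endosomal adaptor, was at 7.97 ± 0.17 in TG, 6.20 ± 0.73 in KO and 8.16 ± 0.14 in WT lungs, with TG minus WT of -0.19 (adjusted p = 0.87), TG minus KO of 1.77 (adjusted p = 2.18e-05) and KO minus WT of -1.96 (adjusted p = 1.44e-07). Sec14l4, a lipid-binding SEC14-like protein, was at 7.40 ± 0.66 in TG, 5.58 ± 1.42 in KO and 7.87 ± 0.09 in WT lungs. Its TG minus WT difference was -0.47 (adjusted p = 0.76), and it was higher in TG than in KO (1.82, adjusted p = 0.033). Pttg1, the securin of mitosis, was at 11.24, 11.65, 11.71, 8.75 and 11.63 in TG lungs, 8.83, 11.28, 8.64, 8.85 and 9.36 in KO lungs, and 11.80, 11.71, 11.57, 11.44 and 11.63 in WT lungs. TG replicate 4 stood with the low KO lungs, the other 4 TG lungs with WT, and KO replicate 2 with WT. That array was the only 1 of 38 TG mice under 11.01, whereas 30 of 39 KO mice lay at 9.36 or less. A p above the threshold does not show that TG and WT levels of these genes are the same.

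Of the remaining genes that rose, Mmp14, a membrane-bound matrix metalloproteinase, was at 6.75, 6.97, 6.89, 6.53 and 7.16 in TG lungs, against 5.79, 5.95, 6.01, 5.93 and 5.75 in WT lungs. It was 1.97-fold higher without overlap (adjusted p = 0.000838), and its other probe set gave 0.64. Whamm, a factor that starts actin branching at membranes, was 1.96-fold higher (4.81 ± 0.12 in TG against 3.84 ± 0.19 in WT, adjusted p = 0.00234). Osr1, a zinc finger transcription factor of mesenchymal cells, was 1.84-fold higher (4.99 ± 0.24 in TG against 4.11 ± 0.15 in WT, adjusted p = 0.0143), and its call was lost without TG replicate 3, TG replicate 4 or WT replicate 1 (adjusted p from 0.0732 to 0.077). Siglecf, a sialic acid-binding lectin of alveolar macrophages and eosinophils, was at 7.12, 6.98, 7.03, 7.30 and 8.34 in TG lungs, against 6.61, 6.55, 6.44, 6.09 and 6.71 in WT lungs. All TG values were above all WT values and TG replicate 5 was far above the rest. Siglecf rose 1.84-fold (adjusted p = 0.0112), but the adjusted p was 0.279 without that array and 0.103 without WT replicate 4.

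The alveolar macrophage list moved with TG replicate 5. All 13 markers tested had a difference above 0, with a median of 0.33, and Siglecf alone passed the test. Without TG replicate 5, 8 of 13 lay above 0 and the median was 0.07. In the KO lungs, which do not include that array, the KO minus WT median of the list was 0.44. The TG minus KO median over all 5 TG arrays was -0.06. Krt79, another member, differed by 0.98 between TG and WT (adjusted p = 0.0742), with all TG arrays above all WT arrays. The other TG and WT mice described below do not include TG replicate 5, and there the list's median was 0.03. Krt79 (0.60, adjusted p = 0.000224) and Siglecf (0.32, adjusted p = 0.0294) were called higher in those mice, and no member was called lower. The log2 summed level of the list was 12.93 to 14.45 over the 5 TG arrays and 12.93 to 13.64 without that replicate, against 12.85 to 13.34 over the WT arrays. Of 11 MHC class II genes, which present antigen, none passed, 10 lay above 0 and the median was 0.39. In 4 of them, H2-DMa among them (9.41 in TG and 9.02 in WT), all TG arrays lay above all WT arrays, against 1.07% of all genes tested. Their log2 summed level was 13.50 to 13.84 over TG arrays and 13.25 to 13.46 over WT arrays, with no overlap. Without TG replicate 5 the median difference was 0.30. H2-Eb1, 1 of these genes, had an SD of 0.13 in TG and 0.10 in WT lungs, but its difference had a fit SE of 0.54. That SE comes from the spread pooled over all groups of the fit, which include groups of CD-1 mice, another strain. Not passing therefore does not mean wide scatter among these TG and WT lungs. T and NK cell markers (13 of 14 above 0, median 0.23) and B cell markers (11 of 12, median 0.28) had no member that passed. In the other TG and WT mice, the medians were 0.29 for MHC class II genes, 0.15 for T and NK and 0.50 for B cell markers. There 3 of the 11 MHC class II genes were called higher and no T and NK or B cell marker was called, against 2.17% of all genes.

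The lists without members that passed included the cholesterol synthesis genes, of which 14 of 15 lay above 0 with a median of 0.38 (0.20 without TG replicate 5), and the heat shock genes, of which all 13 lay below 0 with a median of -0.49 (-0.34 without it). Among the 15 complement genes Cd59a fell and none rose, and the median was 0.22. Of 17 plasma protein genes, Itih2, a hyaluronan-binding inhibitor chain, was called lower (-0.83, adjusted p = 0.0112), none was higher, and the median was -0.11, or 0.26 with the stricter filter. The call of Itih2 was lost without TG replicate 3 (adjusted p = 0.077), WT replicate 2 (0.0555) or WT replicate 3 (0.0725). Medians of the lists of endothelial cells, smooth muscle, heart and skeletal muscle, fat, neutrophils, plasma cells, red cells, alveolar type 1 and type 2 cells, interferon response, clock, mitosis, fatty acid synthesis, matrix, glucocorticoid response and immediate-early genes ran from -0.15 to 0.13, and the median of 6 interferon-inducible p200 genes was -0.23, with no member called in any of these lists.

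**Figure D3:**
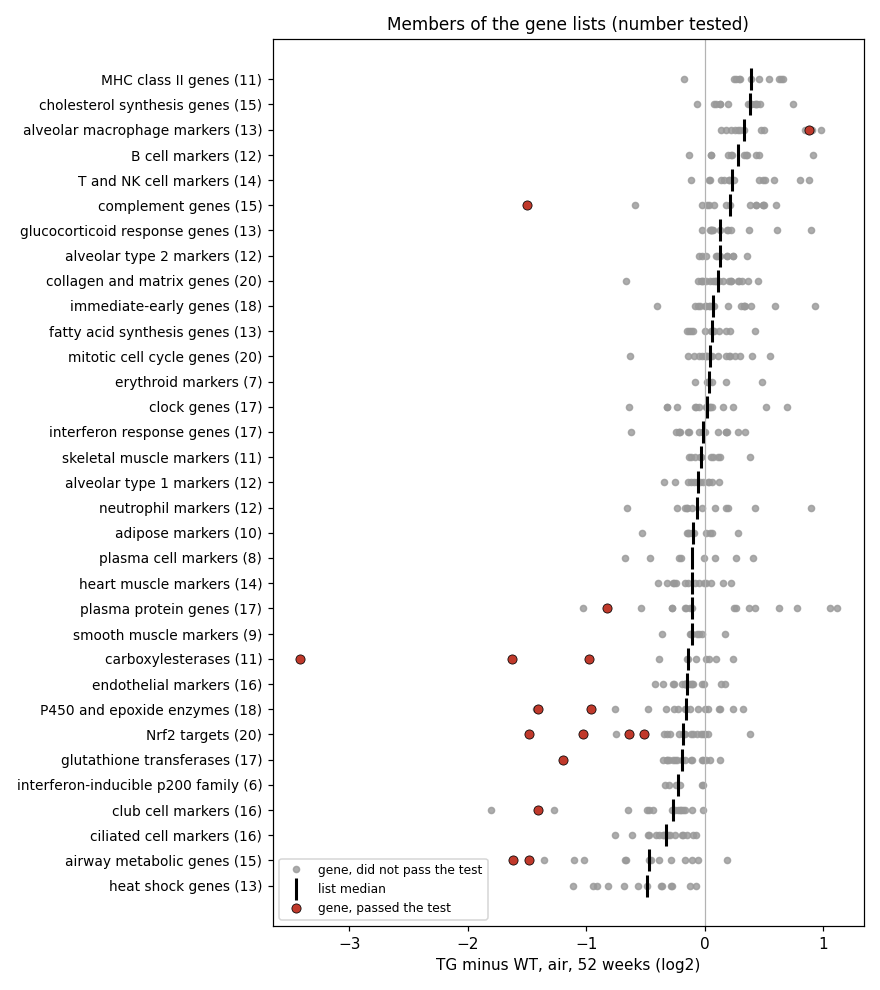
Differences TG minus WT (log2) of every tested member of 33 gene lists, 1 row per list with the number tested in brackets, red points for genes that passed the test, grey points for the rest and a black bar for the median. Red points lie mostly left of 0 in the metabolic lists, and the medians run from -0.49 for heat shock genes to 0.39 for MHC class II genes.

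The same lines were compared in mice that share no array with the 10 above. These were 29 TG and 26 WT mice in 6 groups, namely air for 78 or 104 weeks and 120 ppm styrene for 26, 52, 78 or 104 weeks, and the TG minus WT differences of the groups were averaged. That average called 341 genes (2.17%), and 25 of the 45 genes called at 52 weeks were among them, all 25 in the same direction, 18 lower and 7 higher, which is 55.6% of the 45 and 7.33% of the 341. The other-mice count depended strongly on the groups averaged, with 22 genes from the air groups alone, 516 from the styrene groups alone and 2385 without the 78-week groups, and 10, 22 and 27 of the 45 then passed in the same direction. Without the 78-week groups 1 of the 45, the MAP kinase phosphatase gene Dusp7, passed in the opposite direction. The air group of 78 weeks holds 2 WT mice, and without the first or the second of them 202 or 226 genes were called. Cyp2f2 differed by -1.15 (adjusted p = 1.58e-41) in the other mice, Cd59a by -1.58, Tceanc2 by -1.45, Cap1 by 0.83 and Lrmda by 1.61, each in the same direction in all 6 groups. The 20 genes of the 45 that did not pass there included Cyp4f15 (-0.07) and Gclm (-0.15). In the average of the groups 39 of the 45 genes had the 52-week direction, against 52.3% of all genes tested. In every one of the 6 groups 20 of the 45 had it, and the share of all genes that did so was not counted.

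**Figure D4:**
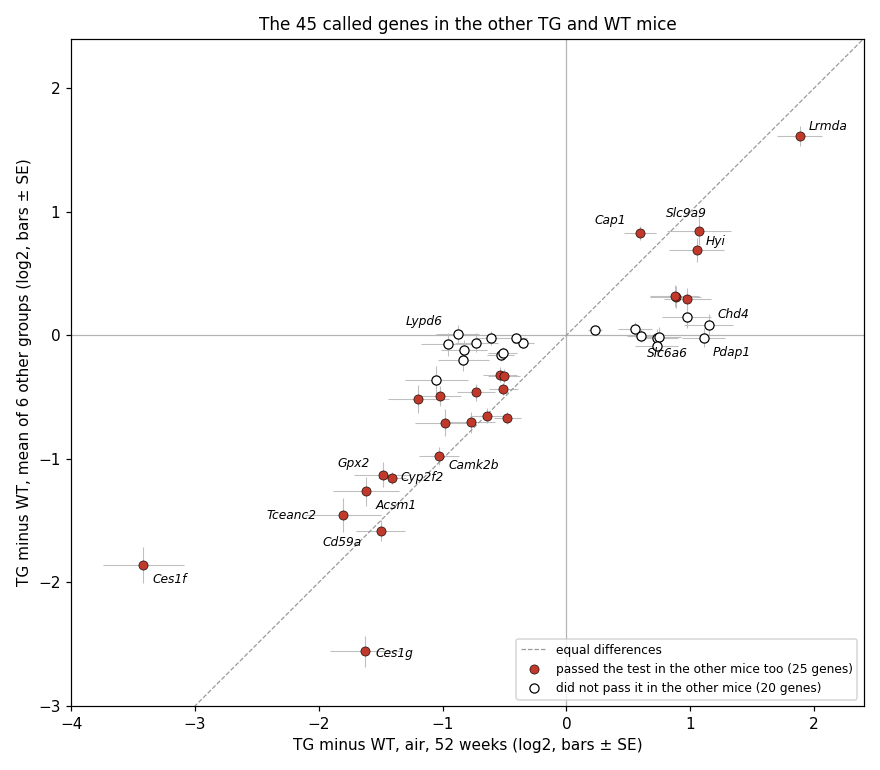
Each of the 45 genes called at 52 weeks in air, with its TG minus WT difference there on the horizontal axis and the average difference of 6 other TG and WT group pairs on the vertical axis (log2, bars ± SE). The 25 red genes passed in the other mice too and lie on the same side of 0 on both axes, while 20 white genes did not pass there, among them Chd4, Pdap1, Slc6a6 and Lypd6 near 0 on the vertical axis.

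The means of Ces1e, Ces1f and Ces1g were lower in TG than in WT in each of the 6 other groups. Ces1g had TG means of 4.20 to 4.52 in the 6 other groups, against WT means of 5.38 and 5.61 in the air groups and 5.76 to 8.56 in the styrene groups. The TG means stayed within a narrow range, and the differences ran from -1.18 in air at 104 weeks to -4.05 in styrene at 26 weeks. Ces1f had a smaller difference in the other mice (-1.86) than at 52 weeks in air, and the test of the change between them did not pass (-1.56, adjusted p = 0.0538). It passed against the styrene groups alone (-1.70, adjusted p = 0.0125) and without the 78-week groups (-1.61, adjusted p = 0.0247), and not against the air groups (-1.28, adjusted p = 0.909). For Ces1g the change passed against the styrene groups alone (1.57, adjusted p = 0.00446).

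That test, of the 52-week air difference minus the other mice, called 7 genes (0.0446%). Against the air groups of the other mice alone, limma called 0 genes, with 678 at an unadjusted p under 0.05, so none of the 7 calls held there. The change against the air groups was 0.96 for Chd4 (adjusted p = 0.54) and 0.95 for Pdap1 (adjusted p = 0.344). Over all 6 groups the test called 1 without TG replicate 5, 2 without WT replicate 3 and 1 without WT replicate 4 of the 52-week air groups, and 13 without TG replicate 2 of the 78-week styrene group. Chd4, the ATPase of the NuRD chromatin remodeller, was at 6.54, 6.70, 6.33, 6.24 and 6.57 in TG lungs, against 5.15, 5.92, 5.54, 4.91 and 5.10 in WT lungs. It was 2.22-fold higher in TG without overlap (adjusted p = 8.71e-05), while the other groups had differences from -0.46 in styrene at 104 weeks to 1.08 in styrene at 78 weeks. Pdap1, a small phosphoprotein that binds platelet-derived growth factor, was at 7.81, 7.58, 7.62, 7.61 and 7.68 in TG lungs, against 6.49, 6.72, 6.80, 6.22 and 6.54 in WT lungs, a 2.15-fold rise without overlap (adjusted p = 1.17e-05). Its other probe set gave 0.14, and the other groups had differences from -0.55 to 0.78, against a change between comparisons of 1.13 (adjusted p = 0.000701). In WT, the 52-week air mean of both genes was the lowest of the 7 WT group means.

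Slc6a6, the taurine transporter, was 1.52-fold higher in TG at 52 weeks in air (9.84 ± 0.14 against 9.24 ± 0.13 in WT, adjusted p = 0.000781), but its 3 other probe sets gave 0.17, -0.01 and -0.02, and with the mean of its probe sets the adjusted p was 0.577. Lypd6, a membrane-anchored Ly6-family protein, was 1.84-fold lower (3.47 ± 0.22 against 4.35 ± 0.17 in WT, adjusted p = 0.0012), and its other probe sets gave -0.09 and -0.26. Its WT mean at 52 weeks in air was the highest of the 7 WT group means, which otherwise lay between 3.38 and 3.88. Asgr1, a galactose-binding receptor of liver cells, and Serpind1, a thrombin inhibitor, had no called difference at 52 weeks in air (-1.02 and 0.26), but the average of the other mice was 1.01 for Asgr1 and -1.06 for Serpind1. In both genes the 4 styrene groups carried that average, with differences of 1.31 to 2.20 for Asgr1 and -1.28 to -1.82 for Serpind1, against -0.49 and -0.09, and -0.01 and 0.08, in the 2 air groups.

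**Figure D5:**
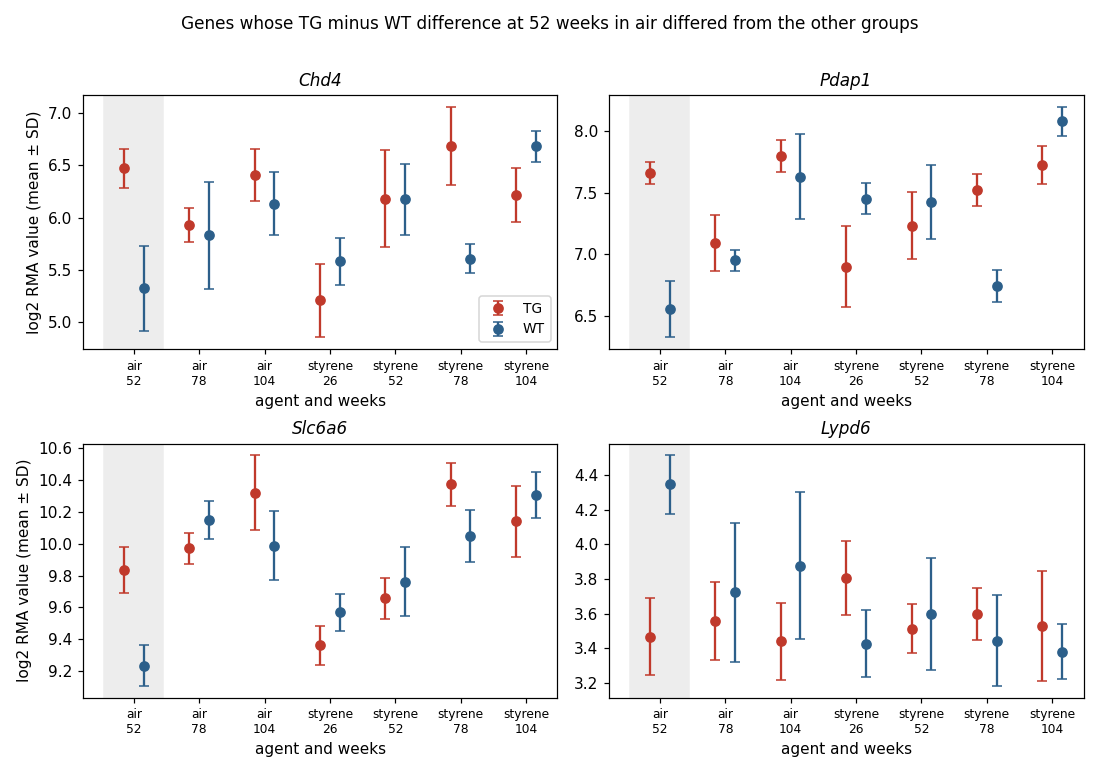
Mean level ± SD (log2 RMA value) of Chd4, Pdap1, Slc6a6 and Lypd6 in TG (red, left) and WT (blue, right) lungs of 7 pairs of groups, by agent and weeks, with 52 weeks in air shaded. In the shaded pair the TG mean is higher for the first 3 genes and lower for Lypd6, and in the other pairs the order of TG and WT changes from group to group.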

How the data were processed

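Lung RNA of each mouse was hybridised to its own Affymetrix array. The authors deposited log2 values of each probe set's intensity, for which the submitters' processing notes list RMA and Partek without versions. No source used here says if plates were normalised jointly. Over 150 arrays and 45037 probe sets the values ran from 1.74 to 14.00. Of the probe sets, 28898 have 1 gene in the platform annotation, 551 have several and were left out, and 15588 are unnamed here. Symbols were updated through the RefSeq gene table (GRCm38.p6). The probe set with the highest mean stands for a gene. Of 17097 genes, 15695 were tested, namely those that exceeded, in 3 or more arrays, the 30th percentile of that array.

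One limma model (lmFit, eBayes) held all 31 group means and a term for the second plate, with Benjamini-Hochberg adjustment over all genes tested and a threshold of 0.05. Every adjusted p is from limma. On simulated data of this comparison over 15695 genes, the test found 30% of 40 genes raised by 0.5, 92.5% of 40 raised by 1 and 100% of 40 raised by 2 on the log2 scale. It found 47.5% of 40 genes lowered by 0.5 and 90% of 40 lowered by 1. Means carry the SD over arrays and differences the SE of the fit. Replicates are separate mice. The p-values rest on the spread between mice within groups, pooled over all 31 groups and not only over the TG and WT groups compared.

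The rule for named genes allows Cyp2f2, the 15 highest and 15 lowest called genes, at most 3 genes per list, those of smallest p, called neighbours on a chromosome, and 15 genes known from earlier results. Members, lists and rule were chosen with earlier results of these data known. Alternatives were no filter, a filter at the 50th percentile in 50% of arrays, averaged probe sets, C57BL/6 arrays only, the 52-week air arrays only, the 2 groups only, another variance model, no plate term, quantile normalisation, replicate numbers as a block, other averages of the other mice and each array left out. Software was R 4.3.3, limma 3.58.1 and matplotlib 3.10.9.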

Additional observations from a re-analysis of the deposited data

Results flagged for a closer look

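Among 110 groups of 5 values (55 genes in TG and WT), 7 had an array farther from the rest than a Dixon test allows (critical value 0.71), which chance alone gives in about 1 group of 20, and 4 of them were in TG replicate 5. Siglecf was at 8.34 in TG replicate 5, against 6.98 to 7.30 in the other 4 TG arrays. In the same array Tmsb10, an actin-binding thymosin, was at 13.12 against 12.98 to 13.02, Lypd6 at 3.09 against 3.49 to 3.63, and B630019K06Rik at 3.78 against 3.36 to 3.45. Atf7, a leucine zipper transcription factor, was at 7.19 in TG replicate 1, against 6.74 to 6.80 in the other TG arrays. Pttg1 was at 8.75 in TG replicate 4, against 11.24 to 11.71. Ces1g was at 4.98 in WT replicate 4, against 6.02 to 6.24 in the other WT arrays. The origin of these values was not tested.

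For 7 genes the TG minus WT difference at 52 weeks in air changed against the average of the other mice by the test of that change in limma. The change was 1.06 for Chd4, 1.13 for Pdap1, 0.60 for Slc6a6 and -0.89 for Lypd6, which were called at 52 weeks in air, with adjusted p values of 0.0152, 0.000701, 0.0152 and 0.0152. It was -2.03 for Asgr1, 1.32 for Serpind1 and 0.54 for Akr1b10, an aldo-keto reductase, which were not called there (adjusted p = 0.0152 each). Akr1b10 averaged 7.82 in TG and 7.48 in WT lungs at 52 weeks in air, and its TG mean was below its WT mean in all 6 other groups. Its other probe sets gave TG minus WT differences of -0.19 and 0.38 at 52 weeks in air.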

How the results depend on the processing

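None of the 45 genes called between TG and WT lungs changed direction under the 20 alternatives, and 15 of them passed the test in each alternative that could test them, among them Cyp2f2, Ces1f, Ces1g, Acsm1, Cd59a, Gpx2, Aox1, Lrmda, Chd4 and Pdap1. The count was 104 with C57BL/6 arrays only and 67 with the mean of probe sets, and 29 to 54 with each array left out. The count for the other mice was 22 from air groups, 516 from styrene groups and 2385 without 78 weeks, and 202 to 389 with each array left out. The count for the change between the comparisons was 4 with the mean of probe sets, 22 with C57BL/6 arrays only, 0 against air groups, 20 against styrene groups and 21 without 78 weeks, and 1 to 13 with each array left out. Against air groups the limma test thus called 0 of 15695 genes, with 678 at an unadjusted p under 0.05. KO minus WT called 37 genes with C57BL/6 arrays only, 13 with the 52-week air arrays only and 12 with the 2 groups only, and 17 to 24 with each array left out. TG minus KO called 3, 1 and 0 in these fits (968 at an unadjusted p under 0.05 in the last, by limma), and 3 to 6 with each array left out. The causes were not tested. With the replicate block the counts were 43 for TG minus WT, 238 for the other mice, 9 for the change, 24 for KO minus WT and 7 for TG minus KO, but the numbers do not pair the mice, since the correlations of same-numbered TG and WT deviations ran from -0.14 to 0.29. With a stricter filter the median was -0.68 for carboxylesterases and 0.26 for plasma protein genes, and without WT replicate 1 it was -0.13 for clock genes. Arrays limit genes near background, where differences are compressed.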
